A study of Mus musculus with 4 samples.

Results

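Ribosomal protein genes encode the protein part of the ribosome. The deposited table holds 84 of them among 22686 genes, taken by name: Rpl or Rps with a number, the stalk genes Rplp0, Rplp1 and Rplp2, and Rpsa, paralogs included. Of these, 52 belong to the large subunit and 32 to the small subunit. Their mRNA was measured in 4 libraries of epiblast stem cells (EpiSCs), pluripotent cells derived from female mouse embryos at embryonic day 6.5. The cross was C57BL6/J with an F1 of JF1 and C57BL6/J. Each library came from 1 combined genotype with no replicate: Smchd1 +/+ with XistdeltaA/+, Smchd1 MD1/MD1 with XistdeltaA/+, Smchd1 +/+ with Xist1lox/+, and Smchd1 MD1/MD1 with Xist1lox/+. All 4 carry a mutated Xist allele, so no library is wild type at both genes. Values below are given in that order of libraries. SmcHD1 is a chromatin protein of the inactive X chromosome, and Xist is the noncoding RNA that spreads along this chromosome.

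Each ribosome needs its proteins in similar numbers, and their genes are among the most strongly transcribed in growing cells. In mammals nearly every such gene has processed copies elsewhere in the genome, made by reverse transcription of its mRNA. These copies lack introns and can be almost identical to the coding sequence of their parent gene. Rpl10, Rpl36a, Rpl39 and Rps4x lie on the X chromosome, where a female cell silences 1 of its X chromosomes. Several X-linked or tissue-restricted genes also have autosomal paralogs, such as Rpl10l for Rpl10 and Rpl36al for Rpl36a.

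Both readouts of each gene were compared. FPKM, a level scaled to gene length and library size, is the total. Allele-assigned reads are reads over a strain variant, and the paternal share is the part of them that carries the paternal allele. They summed to 7826600, 8008500, 7822217 and 7301034 over all genes. On autosomes the paternal chromosome carries a JF1 stretch in some regions and not in others. A region was read as carrying the JF1 paternal allele where the genes within 5 Mb had a median paternal share over 30%, and as not carrying it where this was under 5%. The paternal X was read as JF1 throughout, so its share is a readout of expression there. Ribosomal protein genes were left out of these neighbours.

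Stretches of the coding sequence show how like the members and their copies are. Rpl10, Rpl10a and Rps28 are shown because their totals differed most between Smchd1 genotypes. Each stretch has 60 bases of the coding strand from GENCODE M21 (GRCm38), and capitals mark bases of a copy that differ from the member. The copies of Rpl10a come from chromosomes 1 and 2, those of Rpl10 from chromosomes 2 and 19 and those of Rps28 from chromosomes 6 and 13.
Rpl10a: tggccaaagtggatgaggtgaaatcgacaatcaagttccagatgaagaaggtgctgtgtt
Rpl10a-ps1: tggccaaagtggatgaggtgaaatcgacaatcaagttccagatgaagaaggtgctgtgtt
Gm13573: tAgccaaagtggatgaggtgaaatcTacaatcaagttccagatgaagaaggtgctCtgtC
Rpl10: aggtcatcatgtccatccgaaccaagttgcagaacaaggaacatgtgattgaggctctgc
Rpl10-ps1: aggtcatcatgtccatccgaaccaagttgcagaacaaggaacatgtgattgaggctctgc
Rpl10-ps6: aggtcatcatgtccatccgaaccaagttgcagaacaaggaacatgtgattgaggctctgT
Rps28: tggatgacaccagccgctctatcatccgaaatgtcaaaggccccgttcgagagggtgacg
Gm10443: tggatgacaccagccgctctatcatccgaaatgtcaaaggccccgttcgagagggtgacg
Gm10263: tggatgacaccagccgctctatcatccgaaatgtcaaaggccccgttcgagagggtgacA

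Over 645 of the 648 bases of its coding sequence, Rpl10a matched Rpl10a-ps1 at 100% and Gm13573 at 94.4%. That of Rpl10 (642 bases) matched Rpl10-ps1 at 100% and Rpl10-ps6 at 99.8%. Gm10443 matched Rps28 (207 bases) at 100%. A read within the stretches of Rpl10-ps1, Rpl10a-ps1 or Gm10443 cannot be told from one of the parent gene by its letters in the reference.

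Copies of this kind were the rule. Of 83 members with a coding sequence in the reference, 77 had at least 1 annotated processed copy that covered 80% of it at 90% identity or more. There were 964 such pairs of a member and a copy, with a median of 8 per member. Rpl21, a protein of the large subunit, had the most with 76. For 20 members the best copy matched at 100% over the part that aligned, which was at least 80% of the coding sequence. Rpl8 (74.4%), Rps3 (81.6%) and Rplp2 (89.4%) were among those with none at 90%. The table itself has 7 rows named as a copy of a member, so most copies have no row there by that name.

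The members were highly expressed as a group. Their mean FPKM had a median of 367, beside 12.1 over the 11471 genes with a mean of at least 1. Of the 84, 80 reached a mean of 1, 78 reached 10, 65 reached 100 and 24 reached 1000. Over all genes 43 reached 1000, and 34 of the 100 highest genes were members. The members took 15.2%, 13.9%, 15.1% and 14.9% of all FPKM summed. The same genes took 1.22%, 0.921%, 0.933% and 0.870% of the allele-assigned reads.

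The proteins of the stalk, a flexible arm of the large subunit that recruits elongation factors, were among the highest. Rplp1 had the highest mean of all members, with FPKM values of 5121, 4104, 5069 and 5329. Rplp2 stood at 2635, 1710, 2088 and 2278, and Rplp0, which anchors both to the ribosome, at 1616, 1609, 1901 and 1874. Within each of these genes no library reached 2-fold over another. Rpl32, Rpl41, Rpl8 and Rps15 followed Rplp1, with mean FPKM of 3710, 3599, 3509 and 3297. Rpsa, a small-subunit protein also described as a laminin receptor, had 353, 353, 421 and 392, close to the median member.

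The lowest members were mostly paralogs. Rpl10l, known from testis, was listed at 0.0615 in the first library and at 0 in the others. Rpl39l and Rpl3l, a striated muscle form, did not pass 0.151 in any library. Rps4l was listed at 1.06, 2.21, 0.267 and 0.433. These 4 stayed under a mean of 1 and out of every test. The other paralogs were expressed: Rpl36al from 322 to 389, Rpl22l1 from 204 to 265, Rps27l from 489 to 620 and Rpl7l1 from 73.2 to 89.2. Rpl17, a protein near the exit of the peptide tunnel, was the lowest other member, at 2.998, 4.004, 4.69 and 5.03.

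Genes whose best copy matched at 100% over the aligned part were listed lower. Their mean FPKM had a median of 117 (20 genes), against 490 for the other 63. Of 8 members with a mean from 1 to 50, 5 had a copy at 100%. Across 80 members the number of copies and mean FPKM had a Spearman rho of -0.36, a description across genes that share 4 libraries. Equal numbers of proteins in the ribosome did not show as equal FPKM: Rps27 stood at 7.19, 7.03, 10.8 and 8.72, and Rps23 at 14.97, 22.4, 31.7 and 29.9. Rpl34 had 75.1, 95.2, 125 and 110, while the row Rpl34-ps1, which overlaps it, had 724, 678, 856 and 861. The sources used here do not give how the authors' counting treats reads that fit several places, so the levels of members with close copies are uncertain. The part of copies in these levels was not tested.

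**Figure D1:**
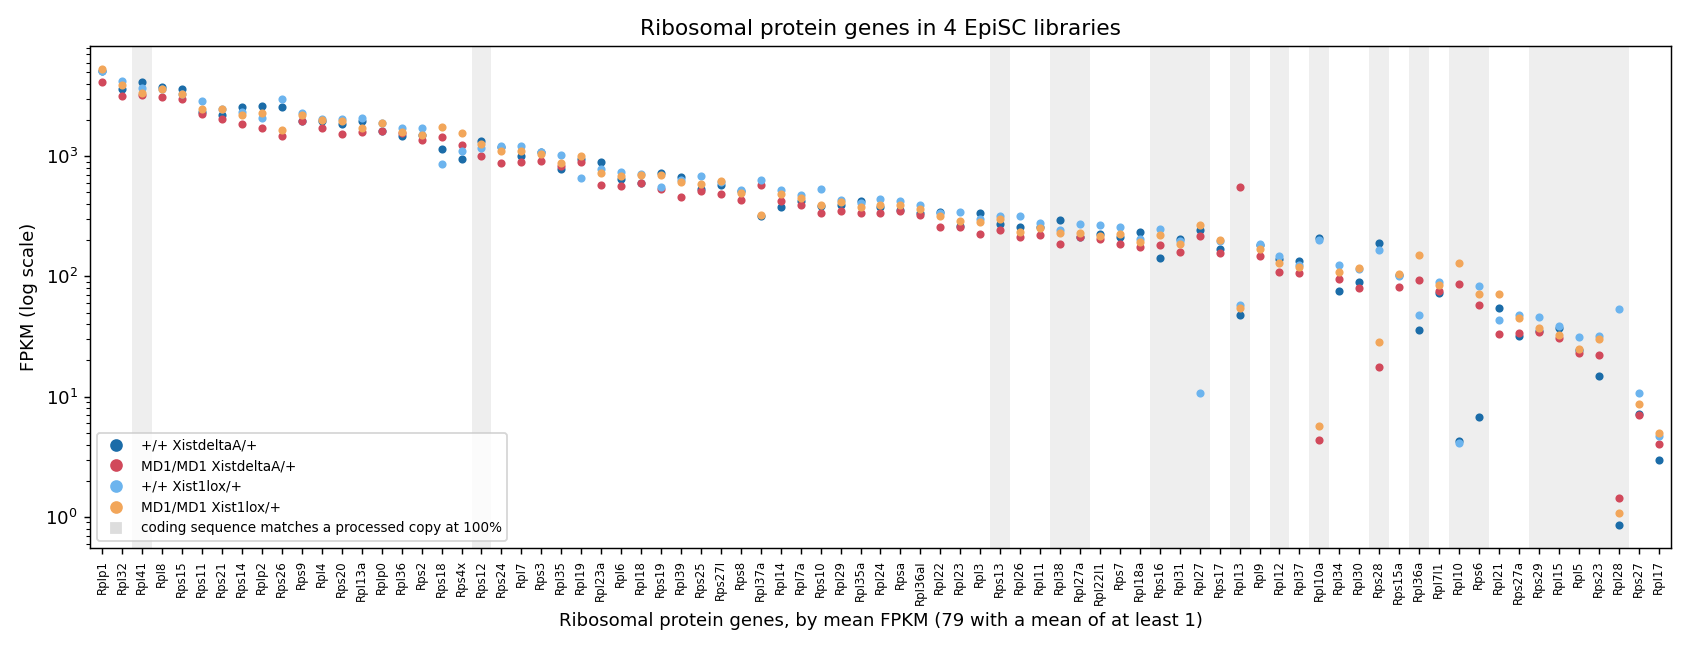
FPKM (log axis) of 79 ribosomal protein genes with a mean of at least 1, ordered by mean, with 1 point per library. Grey columns mark the 20 genes whose coding sequence matches a processed copy at 100% over the aligned part. Most genes have 4 points close together, and the wide columns (Rpl10a, Rpl13, Rpl27, Rps28, Rpl10, Rps6 and Rpl28) are all grey.

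Most members held their level between libraries. The highest library was less than 2-fold over the lowest for 67 of 80 members. It was 2-fold or more for 13, where 8.39% of all genes tested reached this. Of these 13, 9 had a copy at 100%, beside 11 of the 67. The SD of log2(FPKM + 1) over the 4 libraries had a median of 0.18 for members and 0.19 for all genes.

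The small shifts of the whole group went mostly 1 way within each pair. In MD1/MD1 over +/+ the median log2 ratio was -0.16 with XistdeltaA/+, where all genes had -0.05. It was below 0 for 62 of 80 members (77.5%), against 55.0% of all genes. With Xist1lox/+ the median was -0.09 against 0.00 for all genes, and 63 of 80 members (78.8%) were below 0, against 49.2% of all genes. After quantile normalization 56.2% and 55.0% of the members were below 0, 37.5% and 42.5% were above, and the rest were at 0. The medians of members were then -0.0437 and -0.0247, beside -0.0357 and 0.00401 for all genes. Quantile normalization gives equal ranks equal values in every library, and members were 34 of the 100 highest genes. It can thus remove a shift that they share, so these values are no check of the shift. Xist1lox/+ over XistdeltaA/+ gave a median of 0.23 in the MD1/MD1 pair, beside 0.04 for all genes. There 3.75% of members were below 0, against 44.4% of all genes, and 21.2% of members after quantile normalization. With that normalization 73.75% of members were above 0, and their median was 0.0664, beside 0.0332 for all genes. In the +/+ pair the median was 0.17, beside -0.02 for all genes, with 33.8% of members below 0 against 52.3% of all genes. After quantile normalization 40% of members were below 0 there and 58.75% above, and the median was 0.0542, beside -0.00993 for all genes. Over the 27 members with at least 20 allele-assigned reads in every library, the ratio of reads in the +/+ pair had a median of -0.0320. This is a smaller set than the 80 members of the FPKM median, so the readouts are not compared on the same genes. These comparisons share libraries and are not independent of each other. The MD1/MD1 XistdeltaA/+ library had the lowest member share of FPKM. It also held the most macrophage marker RNA, with a sum of 906 FPKM over 7 markers beside 23.5, 320 and 289 in the others. These sums are mostly single genes: Lyz2 had 0.384, 799, 274 and 247, and Cd68 had 21.7, 34.6, 19.3 and 18.1. Of the 7 markers, 2 were at 0 in the first library and none in the rest. The sum over 8 fibroblast markers, none at 0, was 43.1, 120, 56.6 and 57.9. The part of the markers in these shifts was not tested. In bulk RNA, fewer cells of a type and less RNA per cell cannot be told apart.

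The design asks first what the loss of SmcHD1 does to these genes. In limma, 2 of 80 members passed an adjusted p of 0.05 for Smchd1 genotype, where 0.0349% of 11471 genes passed. Rpl10 was higher and Rpl10a lower in the MD1/MD1 libraries, where 0.0174% of genes passed in each direction. Without the limit on low FPKM, neither of them passed. With Smchd1 genotype as the only term, 5 members passed without the +/+ XistdeltaA/+ library and 3 without MD1/MD1 XistdeltaA/+. Without +/+ Xist1lox/+ or without MD1/MD1 Xist1lox/+, 4 passed. Each of these fits has 1 library in an arm, which is assumed to vary like the other arm, and is no check of the calls. An unadjusted p under 0.05 was reached by 7 members and by 374 of all genes. The labels do not say whether the libraries are separate lines, and the test rests on 1 residual degree of freedom. By size alone, Rpl10 and Rpl36a were 2-fold higher in both Xist backgrounds, where 0.131% of all genes were. Rpl10a and Rps28 were 2-fold lower in both, where 0.113% were. These 4 genes all have a copy at 100%. Within single pairs, 4 members were 2-fold higher and 2 lower with XistdeltaA/+ (3.91% and 1.82% of genes). With Xist1lox/+, 4 were higher and 3 lower (0.445% and 0.375%).

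Rpl10 (mm9, X, 71516155 to 71518474) encodes a late-joining protein of the large subunit near the sites that bind tRNA. Its FPKM was 4.26, 86.4, 4.12 and 129. Both MD1/MD1 libraries lay far above both +/+ libraries, with log2 ratios of 4.05 and 4.66. In limma the log2 change was 4.36 (SE 0.21, adjusted p = 0.0110). Allele-assigned reads did not follow: the libraries had 68, 48, 36 and 51. Of these, 0, 8, 0 and 6 were paternal. The paternal share was thus 0% in both +/+ libraries, with upper limits of the exact 95% interval of 5.28% and 9.74%. In the MD1/MD1 libraries it was 16.7% (exact Clopper-Pearson 95% interval 7.48% to 30.2%) and 11.8% (4.44% to 23.9%). These intervals and limits cover counting error only. The neighbours of Rpl10 had median shares of 0%, 4.67%, 0% and 5.85%.

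The paternal share of members was compared between the libraries of a pair by Fisher's exact test (two-sided), adjusted over all genes with 20 reads in both. It passed for 11 of 28 members with XistdeltaA/+ (37.2% of all genes passed) and for 12 of 28 with Xist1lox/+ (36.7% passed). These shares are near the background. The autosomal members among them numbered 10 and 12, of which 8 and 11 lay in regions that carry the JF1 paternal allele in 1 library of the pair only. For Rpl10 the adjusted p was 0.00206 with XistdeltaA/+ and 0.101 with Xist1lox/+. It compares those libraries, not the genotypes. Among X-linked genes 46.9% and 42.2% passed. Over 344 X-linked genes with 20 reads in every library the median paternal share was 0%, 3.55%, 0.228% and 3.57%. Reads pooled over these genes were 4.50%, 14.7%, 5.09% and 13.4% paternal. The share of Rpl10 in both MD1/MD1 libraries was thus above the X-linked median and had an interval that holds the pooled value.

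Rpl36a (X, 131120193 to 131122601), a small protein at the exit site for tRNA, had 36.1, 92.6, 48.0 and 151. Both MD1/MD1 libraries were above both +/+ libraries, with log2 ratios of 1.34 and 1.64. The limma adjusted p was 0.237. Its autosomal paralog Rpl36al had 338, 322, 389 and 365, with no such split. Rps4x (X, 99380282 to 99383710), a protein of the small subunit whose human counterpart escapes X inactivation, had 939, 1238, 1099 and 1561. Its log2 ratios were 0.40 and 0.51, with an adjusted p of 0.937 in limma. The MD1/MD1 and +/+ libraries of Rps4x did not overlap, but 13.8% of all genes were higher in this way too. Of the 80 members 4 were, and 26 were lower without overlap, beside 18.9% of all genes. After quantile normalization these counts were 9 and 22, beside 15.2% and 19.3% of genes. Rpl39 (X, 34622515 to 34625179), a small protein that lines the peptide tunnel, had 677, 461, 637 and 607. It was lower in the MD1/MD1 library of each pair, by log2 ratios of -0.55 and -0.07, with an adjusted p of 0.937 in limma. Rpl36a, Rps4x and Rpl39 have no allele-assigned read in any library, so the paternal X copy of them was not measured. Their best copies matched at 100%, 98.5% and 99.3%.

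**Figure D2:**
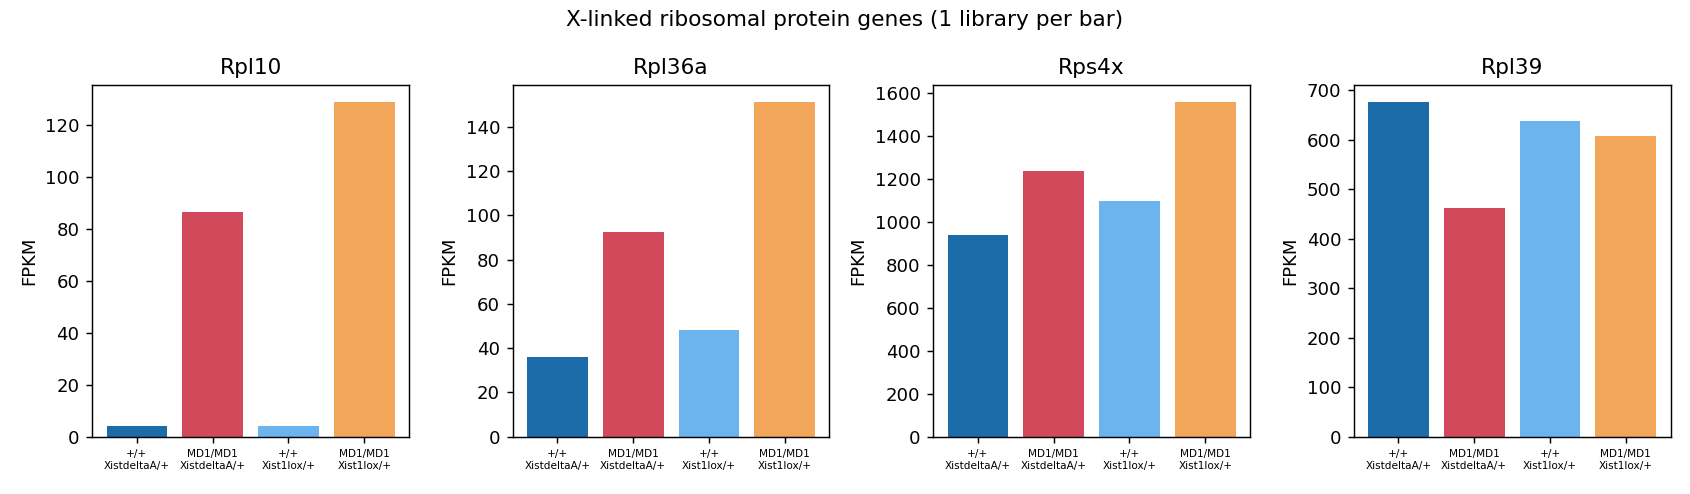
FPKM of the 4 X-linked ribosomal protein genes, 1 bar per library, each panel with its own axis from 0. Rpl10, Rpl36a and Rps4x are higher in both MD1/MD1 libraries than in both +/+ libraries, and Rpl39 is not.

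Rpl10a (17, 28465416 to 28467978) encodes an autosomal large-subunit protein of another family than Rpl10. Its FPKM was 207, 4.33, 199 and 5.69. Both MD1/MD1 libraries were far below both +/+ libraries, with a limma log2 change of -5.09 (SE 0.18, adjusted p = 0.00561). Rps28 (17, 33959982 to 33961443), a small-subunit protein near the mRNA exit, had 189, 17.7, 165 and 28.4. Its limma log2 change was -2.92 (SE 0.24, adjusted p = 0.101). Both genes lie on chromosome 17, where Smchd1 also lies. Their neighbours had a paternal share near 50% in both +/+ libraries and near 0% in both MD1/MD1 libraries: 49.2%, 0%, 48.6% and 0% around Rpl10a. Smchd1 genotype and the regional paternal allele cannot be told apart for these genes. Allele-assigned reads gave no second measure, with 4, 13, 9 and 12 reads for Rpl10a and none for Rps28.

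Regions differ between libraries on other autosomes too, so total FPKM was set against the regional paternal allele. This comparison was chosen after values had been seen and has no test. Of 80 autosomal members, 42 lay in regions with the JF1 paternal allele in all 4 libraries, 2 (Rpsa and Rpl14) in none and 36 in some. Of these 36, 34 had a mean FPKM of at least 1. In 6 of the 34, every library with the allele was 2-fold or more above every library without it. Of 4866 genes in such regions, 0.678% did so. None of the 34 was 2-fold lower, where 0.185% of all were. Without a limit of size, 9 members did not overlap and were higher (22.2% of all genes) and 10 were lower (23% of all), both near the background.

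The 6 genes include Rpl10a and Rps28, which share 1 region pattern, and 4 more. Rpl28 (7, 4744567 to 4746149) had 0.861, 1.45, 54.0 and 1.09, and its neighbours were paternal only in the third library, at 50.8%. Rpl13 (8, 125626250 to 125629142) had 47.7, 549, 57.9 and 54.6, and its neighbours were paternal only in the second, at 45.5%. Each of them was thus high in the 1 library with the regional allele.

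Rpl27 (11, 101303559 to 101306910) had 244, 217, 10.8 and 266, with neighbours paternal in every library but the third. Rps6 (4, 86500003 to 86503271), the small-subunit protein phosphorylated by S6 kinases, had 6.75, 58.3, 82.5 and 70.9, with neighbours paternal in every library but the first. Here the 1 library without the regional allele was low. The smallest gap between both kinds of library was 4.90 (Rpl10a), 4.49 (Rpl28), 4.21 (Rpl27), 3.22 (Rpl13), 2.94 (Rps6) and 2.50 (Rps28) on the log2(FPKM + 1) scale.

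Allele-assigned reads were enough only for Rps6 among the 6. Its reads numbered 44, 20, 34 and 23, and the paternal share was 0%, 30%, 35.3% and 43.5%. The library with the low FPKM thus had the most reads. All 6 genes have a copy at 100%. Of the 34 members compared, 8 have one, and Rps16 and Rpl41 are the other two. Rps16 had 142, 182, 247 and 222 and Rpl41 4159, 3199, 3660 and 3378, with no such gap. The part of copies in these gaps was not tested.

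Rpl37a and Rps26 went the other way by more than 1.5-fold, as did 1.03% of the 4866 genes, while 1.46% were higher by as much. Rpl37a (1, 72757834 to 72760387) had 317, 570, 638 and 323 and was lower in the first and the fourth library, which carry the regional allele. Rps26 (10, 128061585 to 128063562), a protein at the mRNA exit, had 2573, 1462, 2967 and 1638 and was lower in both MD1/MD1 libraries, which carry it, so that genotype and region cannot be told apart. In limma the Smchd1 change of Rps26 was -0.84 (SE 0.13, adjusted p = 0.642). Their best copies matched at 99.6% and 99.4%.

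**Figure D3:**
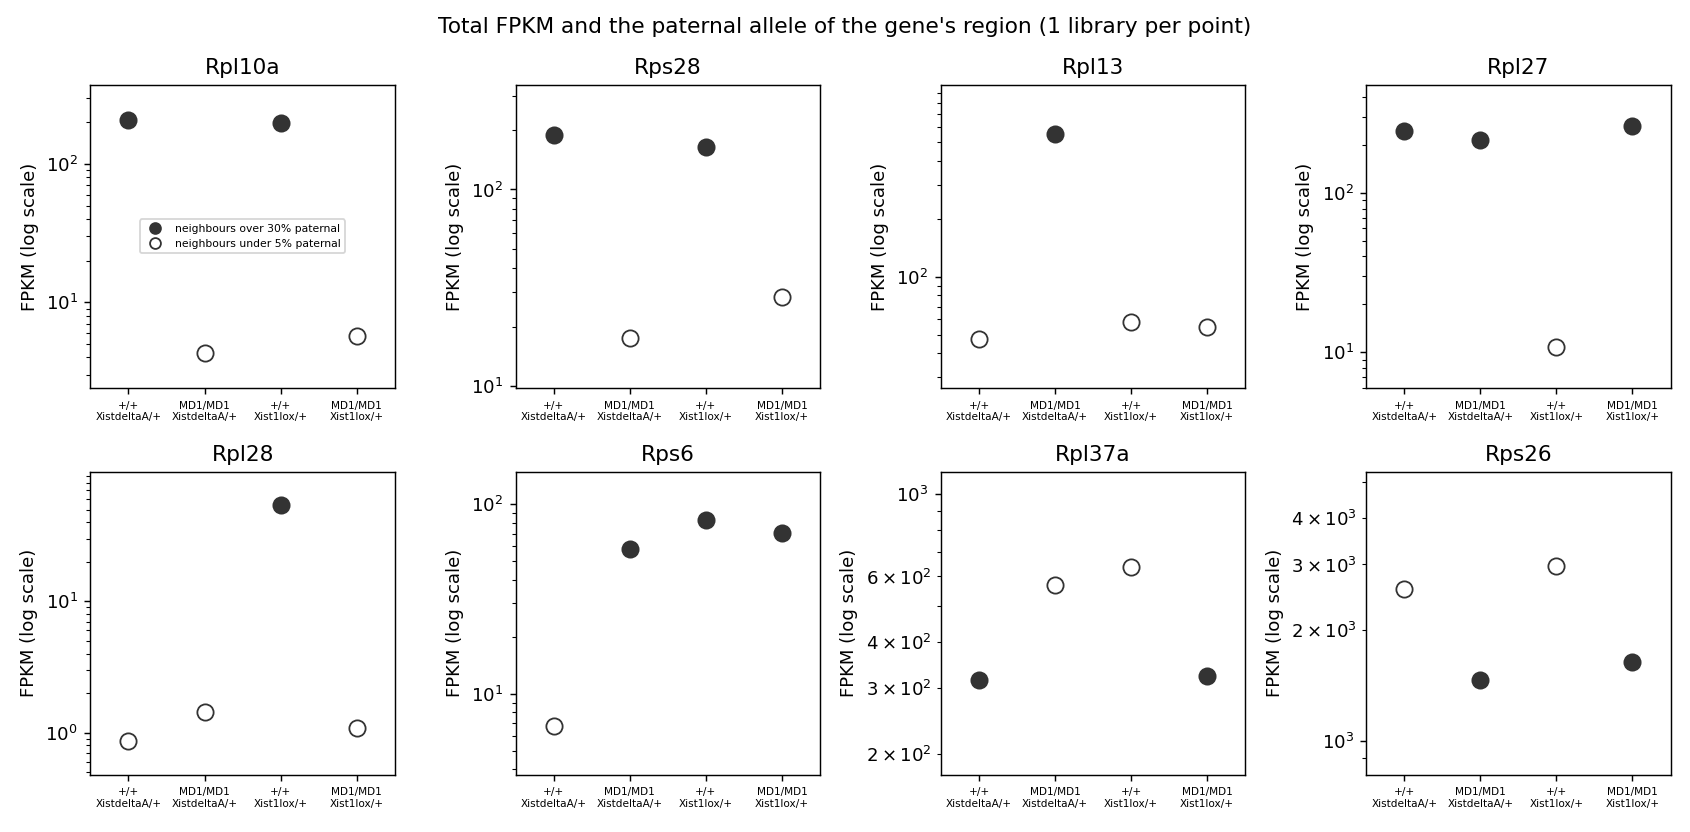
FPKM (log axis) of 8 autosomal ribosomal protein genes, 1 point per library. Filled points mark libraries where neighbouring genes are over 30% paternal, and open points those where they are under 5%. Filled points lie above open points by 2-fold or more in the first 6 panels and below them in Rpl37a and Rps26.

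The second readout was missing for many members. Of 78 members with a mean FPKM of at least 10, 41 had no allele-assigned read in any library, where 10.9% of 6302 genes had none. Among the 78, 11 of the 20 members with a copy at 100% had none, and 30 of the other 58. Only 27 members had at least 20 reads in every library.

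Among these 27, the ratios of FPKM and of reads, scaled to the library total, parted by 2-fold or more for 8 members in MD1/MD1 over +/+ with XistdeltaA/+ (0.98% of 9491 genes did). With Xist1lox/+ they parted for 3 members (0.506% of genes). For the Xist mutation they parted for 8 members in the +/+ pair (0.78%) and 3 in the MD1/MD1 pair (0.4%). Rpl10, Rpl14 and Rpl37a parted in both pairs, where 0.232% of genes did. In any of the 4 pairs 9 members parted, beside 1.59% of genes. The share of members that part was thus above the background in each pair.

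Rpl14 (9, 120480634 to 120483770), a large-subunit protein, showed the widest gap. Its FPKM was 375, 423, 523 and 485, all within 2-fold. Its allele-assigned reads numbered 1053, 86, 170 and 5080, and none was assigned as paternal. Its neighbours also had a median paternal share of 0% in every library, so its region was read as without the JF1 allele. Expression of its paternal copy was thus not measured. Rpl37a moved in opposite directions: its reads were 315, 148, 185 and 259 and so were higher in the first and the fourth library, where its FPKM was lower.

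Members that parted in some pair also included Rps6, above, and Rpl13a, Rps3, Rps19 and Rps27l, named after their values were seen. Rpl13a had 11230, 1678, 2396 and 1488 reads, with FPKM of 1965, 1574, 2067 and 1705. Rps3, a small-subunit protein at the mRNA entry, had 32259, 17530, 15562 and 15612, with FPKM of 1093, 907, 1092 and 1040. Both Rpl13a and Rps3 had the most reads in the first library, while FPKM differed by less than 2-fold. Rps27l went the other way, with 1957 reads in the first library and 4652, 5437 and 4315 in the rest. Rps19 had 63, 116, 102 and 68 reads, with FPKM of 719, 530, 552 and 691, so that the libraries with more reads had the lower FPKM.

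Rps21 had 7180, 7059, 8521 and 0 reads, while its FPKM was 2207, 2028, 2469 and 2462. The fourth library is the one whose neighbours of Rps21 were at 0% paternal. In the others its share was 48.1%, 46.9% and 47.2%, close to neighbours at 48.5%, 47.5% and 49.8%.

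On allele-assigned reads, edgeR's quasi-likelihood test called no member for Smchd1 genotype: 0 of 33 members passed (0.043% of 11617 genes passed). An unadjusted p under 0.05 was reached by 2 members and by 304 of the 11617 genes. DESeq2 also called none. For the Xist mutation limma called 0 of 80 (0% of all genes passed), with 6 at an unadjusted p under 0.05, beside 368 of 11471 genes. For the Xist mutation edgeR called 0 of 33 (0%), with 0 at an unadjusted p under 0.05, beside 325 of 11617 genes. No member was 2-fold higher or lower in both Xist comparisons (0.0262% and 0.061% of genes were). In the +/+ pair alone 4 members were higher with Xist1lox/+ and 1 lower (1.73% and 1.4% of genes). In the MD1/MD1 pair 1 was higher, Rpl21, and 1 lower, Rpl13 (0.323% and 2.17%).

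**Figure D4:**
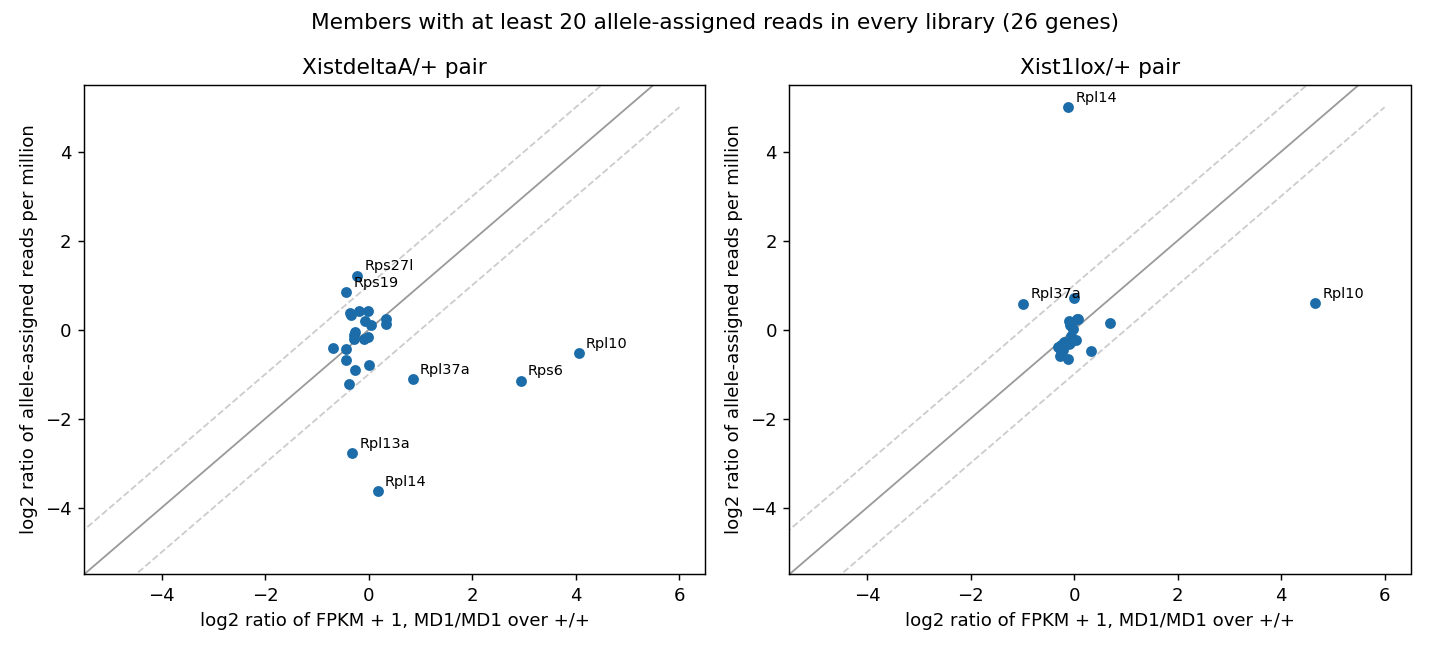
Log2 ratio of MD1/MD1 over +/+ for FPKM + 1 (x axis) and for allele-assigned reads scaled to the library total (y axis), 1 point for each of 26 members, in the XistdeltaA/+ pair (left) and the Xist1lox/+ pair (right). The solid line marks equal ratios and the dashed lines a 2-fold gap; Rpl10 and Rpl14 lie far off it in both panels.

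Where reads sufficed, most autosomal members had the share of their region. Where neighbours were under 5% paternal, all 33 values of members were too, with a highest of 1.82%. Where neighbours were over 30%, the 81 values of members had a median of 44.6%, beside 48.3% for other genes. They were below their neighbours in 58 of 81, or 71.6%, against 50.01% of the values of other genes. A gene gives a value for each library with enough reads, so the values are not independent, and the difference was not tested. Rpl8, which binds ribosomal RNA near the catalytic centre, had 50.003%, 48.9%, 49.6% and 49.9%. Rpl4 had 47.6%, 47.6%, 46.9% and 46.3%. Rps3 had 0.0713%, 0.0456%, 0.0193% and 48.6%, with its region paternal only in the fourth library.

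A share 20 points or more from the neighbours in at least 2 libraries was seen for 4 of 29 members, beside 8.84% of genes. Rpl15 (14, 19100337 to 19103500), a large-subunit protein, had 0%, 41.9%, 32.4% and 0% from 482, 477, 562 and 403 reads. Its neighbours stood at 47.0%, 47.0%, 48.3% and 47.1%. Its share was thus at 0% in the first and the fourth library, where counts of 0 allow up to 0.622% and 0.744%, although its region is paternal there. FPKM of Rpl15 did not split this way, at 37.3, 30.6, 38.4 and 32.7.

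Rpl23, a large-subunit protein on the side that meets the small subunit, had 26.2%, 24.0%, 0.287% and 19.7%, with neighbours at 49.4%, 46.5%, 0% and 48.9%. Rplp0 had 31.3%, 27.6% and 25% in the first, the third and the fourth library, with neighbours at 48.5%, 48.8% and 48.7%. Its reads numbered 150, 13, 116 and 100, and in the second library, which is under the limit of 20 reads, 7 of the 13 were paternal. Rps25 had 22.7% and 25.9% in the second and the third from 22 and 27 reads, with neighbours at 45.7% and 48.3%. All 3 were maternal-weighted in their libraries with 20 reads or more. Their best copies matched at 99.8%, 98.7% and 98.9%, and that of Rpl15 at 100%.

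**Figure D5:**
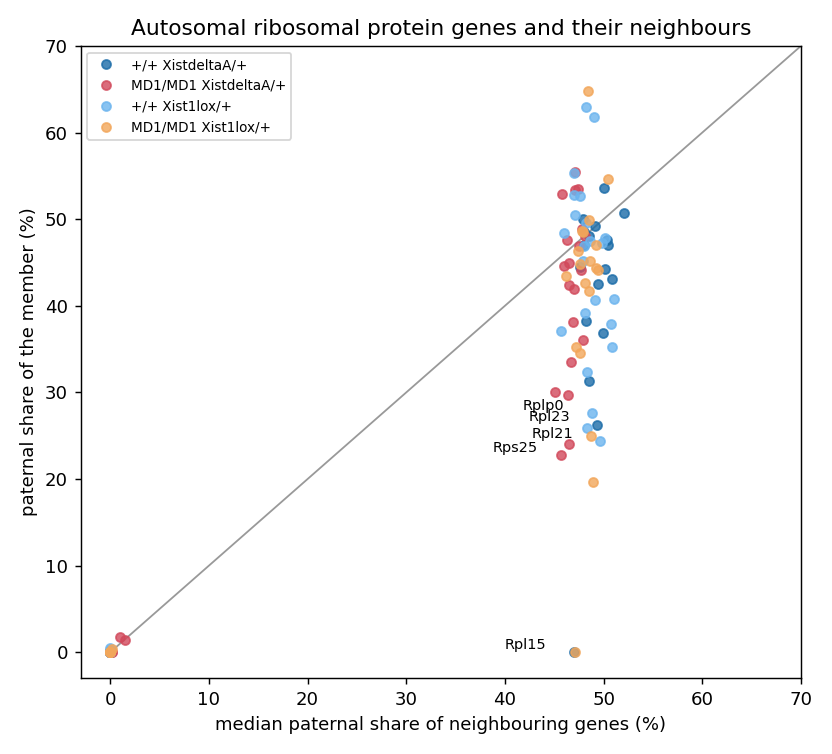
Paternal share of autosomal ribosomal protein genes with at least 20 allele-assigned reads (y axis, %) against the median share of their neighbours (x axis, %), 1 point per gene and library, with names beside genes 20 points or more off the line of equality. Points gather near 0% and near 45% to 50%, and Rpl15 lies at 0% where its neighbours are near 47%.

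Other genes of protein synthesis gave a frame for these values. None of 77 mitochondrial ribosomal proteins, which build the separate ribosome of mitochondria, passed limma for Smchd1 genotype. An unadjusted p under 0.05 was reached by 2 of them, beside 374 of 11471 genes. Their median log2 ratios of MD1/MD1 over +/+ were -0.01 and -0.08. None of 27 ribosome assembly genes passed either, with medians of 0.32 and 0.13. Among them Bop1 and Rrp12 were 2-fold higher with XistdeltaA/+. None of 9 elongation factors and other genes with a 5′ TOP motif passed, with medians of -0.04 and -0.09. Markers of the labelled cell type were checked as lists. Of 8 markers of primed epiblast, Pou5f1, Sox2, Nanog, Fgf5, Dnmt3b, Otx2 and Zic2 were at 25.6 FPKM or more in every library, and T did not pass 0.465. Of 6 markers of naive cells, Dppa3 was listed at 0 and Zfp42, Esrrb and Tbx3 did not pass 1.15. Klf4 and Klf2 of the naive list were present, from 24.2 to 34.8 and from 30.8 to 50.6.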

How the data were processed

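RNA was extracted with TRIzol and prepared with a stranded mRNA kit (TruSeq), per the labels' protocols. Cufflinks 2.2.1, Cuffdiff and mm9 are named in the submitters' processing notes without roles. The sources used here give no aligner, variant list or handling of multiply placed reads. The authors deposited, per the file headers, the count of allele-assigned reads, the fraction of them that is paternal, and FPKM. Left out were 6 columns that match no sample here. Starts were written 1-based.

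Total levels were analysed as log2(FPKM + 1) with limma 3.58.1 (trend, Smchd1 genotype plus Xist mutation, 1 residual degree of freedom) where mean FPKM was 1 or more. The log scale understates changes of low genes. Reads were tested with edgeR 4.0.16 and DESeq2 1.42.0 (R 4.3.3), and shares with Fisher's exact test (scipy 1.17.1). P-values were adjusted over all genes by Benjamini-Hochberg, and limma, edgeR and Fisher's test, but not DESeq2, were tried on simulated data. The counts cover strain variants only, so limma on FPKM was the main test. With 1 library per genotype, no p-value rests on a spread between replicates of a genotype. In limma the residual of a gene is the difference of its Smchd1 change between the Xist backgrounds, drawn towards the trend over all genes. Fisher's test covers the counting of reads only.

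Coding sequences came from GENCODE M21 (GRCm38, another build, so none of its coordinates are used) and were aligned with BLAST 2.17.0 to 10256 processed pseudogene transcripts. Named genes are the X-linked members, the stalk genes and Rpsa, the paralogs, the 5 highest and 5 lowest, members called or past 2-fold in both backgrounds, members whose readouts part in both, and members 20 points off their neighbours in 2 or more libraries. Members, lists and tests were chosen with earlier results of these data known. Some items are not reported here, and the figures leave out 1 gene that the counts hold.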

Additional observations from a re-analysis of the deposited data

Results flagged for a closer look

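Rpl37a and Rpl21 moved in opposite directions in both Xist backgrounds, each by more than 1.5-fold, and the difference was not tested. The log2 ratio of MD1/MD1 over +/+ for Rpl37a was 0.85 with XistdeltaA/+ and -0.98 with Xist1lox/+. The neighbours of Rpl37a were paternal in the first and the fourth library, in which its FPKM was lower. For Rpl21 the log2 ratio was -0.70 with XistdeltaA/+ and 0.70 with Xist1lox/+, from FPKM of 54.4, 33.2, 43.6 and 71.7. Rpl21 has 76 processed copies at 90% identity or more, and its region carries the JF1 paternal allele in every library but MD1/MD1 Xist1lox/+. The part of either in its values was not tested.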

How the results depend on the processing

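No paired analysis was possible because the labels carry no replicate numbers; the limma fit with the Xist mutation as a term already compares within each Xist background. For Smchd1 genotype limma called 2 members, and 0 without the limit on low FPKM, where the adjusted p was 0.245 for Rpl10 and 0.145 for Rpl10a. Leaving out each library in turn, with Smchd1 genotype as the only term, called 3 to 5 members, from fits with 1 library in an arm. Rps28 passed at a mean FPKM of at least 10 (adjusted p = 0.0193). Quantile normalization moved the median log2 ratio of the members from -0.16 to -0.0437 (XistdeltaA/+) and from -0.09 to -0.0247 (Xist1lox/+) for MD1/MD1 over +/+. For Xist1lox/+ over XistdeltaA/+ it moved it from 0.17 to 0.0542 in +/+ and from 0.23 to 0.0664 in MD1/MD1. This normalization can remove a shift that the highest genes share, so these moves are no check of the shifts. Allele-assigned reads scaled to the library total gave -0.23 for MD1/MD1 over +/+ with Xist1lox/+, and -0.0320 (+/+) and 0.10 (MD1/MD1) for the Xist mutation. These medians cover only the 27 members with at least 20 reads in every library, so the set of genes changed as well as the readout. With at least 100 reads, 1 member in place of 3 parted in both pairs, and 7 in place of 11 changed share with XistdeltaA/+; fewer genes are compared there. At 1.5-fold, 2 members in place of 0 were lower with the regional paternal allele (1.03% of all genes). The 6 higher were the same genes with neighbours within 2 Mb, a pseudocount of 0.1, quantile normalization, a mean FPKM of at least 10 and at 1.5-fold. These settings were chosen after seeing the data, and Rpl28 passes the mean of 10 only through its 1 high library. Rpl10a (4.33 and 5.69) and Rps6 (6.75) were also under 10 where the allele was absent, so they pass only through libraries with it. Quantile normalization moved the members higher in both MD1/MD1 libraries without overlap from 4 to 9, also chosen after seeing the data. For the other moves the cause was not tested.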
